A study of Mus musculus with 3 samples.

Results

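The oligoadenylate synthetases are a family of interferon-induced enzymes, and 6 of their probe sets were followed here on arrays of ATDC5 cells with and without *Tet1* knockdown (KD). ATDC5 is a mouse chondroprogenitor line, derived from a teratoma, that forms cartilage-like cells in culture when insulin, transferrin and selenium are added. The members were every row with a symbol starting in Oas in the table that names genes, which made 6 of its 1330 named and 1524 listed probe sets, from arrays that hold 35512 probe sets in all. There was 1 array of cells carrying a nontarget (NT) hairpin and 2 arrays of *Tet1* KD cells, each with its own hairpin (Tet1sh1 and Tet1sh2, called hairpin 1 and hairpin 2). All 3 cultures had the wild-type genotype, received their hairpin by lentivirus before differentiation, were selected with puromycin and were harvested on day 15. With 1 NT array, loss of *Tet1* cannot be told apart from other effects of the hairpins, the virus or the culture. Each hairpin stands for 1 culture on 1 array, and no culture has a replicate of its own. The table that gives the gene names lists only probe sets that the authors had selected on this same contrast, in either direction, for the lower bound of the fold and for the difference in intensity. The members were therefore bound to differ between NT and KD, and what the selection left free was the direction, and the size beyond its bounds. A filtering step in the paper counts more arrays than these 3, and the part of a further array in the selection was not tested.

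Oligoadenylate synthetases bind double-stranded RNA and then join ATP into 2′-5′-linked oligoadenylates. These short molecules are second messengers of the antiviral state, in which viral and cellular RNA is broken down. Transcription of the family is induced by interferons through the interferon-stimulated response element (ISRE) in promoters. Mice carry an expanded group of Oas1 genes.

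In the RefSeq annotation of assembly GRCm38.p6 there were 12 mouse genes with an Oas symbol, all on chromosome 5. The members were 6 of them, *Oas1a*, *Oas1b*, *Oas1g*, *Oas2*, *Oas3* and *Oasl2*, and each was matched to its current gene by accession. Array values of the other 6, *Oas1c*, *Oas1d*, *Oas1e*, *Oas1f*, *Oas1h* and *Oasl1*, were not analysed here. The genes from *Oas2* and *Oas3* through the Oas1 group form 1 cluster, in which *Oas1g* and *Oas1a* are direct neighbours, and *Oasl2* lies apart from it, near *Oasl1*. *Oas1b* is annotated in this reference, which comes from C57BL/6J mice, as a transcribed pseudogene.

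Promoters of 4 members, running from 250 bases before to 50 bases after the annotated start, were available from RefSeq (GRCm38.p6), and those of *Oas1g*, *Oas1a* and *Oas3* are shown because they hold the core letters of the ISRE. Capitals mark matches to GAAANNGAAA, where N is any base, searched on both strands. The sequences are written along the strand of each gene, the minus strand for all of them, and lie at chr5:120887564-120887863 (*Oas1g*), chr5:120907476-120907775 (*Oas1a*) and chr5:120777610-120777909 (*Oas3*).
Oas1g: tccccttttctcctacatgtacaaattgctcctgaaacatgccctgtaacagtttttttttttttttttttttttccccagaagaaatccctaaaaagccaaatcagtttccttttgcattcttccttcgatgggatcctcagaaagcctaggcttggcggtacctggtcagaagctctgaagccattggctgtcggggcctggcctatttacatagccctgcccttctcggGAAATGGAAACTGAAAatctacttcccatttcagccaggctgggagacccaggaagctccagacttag
Oas1a: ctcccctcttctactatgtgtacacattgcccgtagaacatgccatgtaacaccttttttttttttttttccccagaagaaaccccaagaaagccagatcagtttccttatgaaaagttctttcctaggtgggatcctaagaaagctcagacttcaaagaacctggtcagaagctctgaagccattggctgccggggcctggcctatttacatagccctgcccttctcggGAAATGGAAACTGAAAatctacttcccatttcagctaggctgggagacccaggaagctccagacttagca
Oas3: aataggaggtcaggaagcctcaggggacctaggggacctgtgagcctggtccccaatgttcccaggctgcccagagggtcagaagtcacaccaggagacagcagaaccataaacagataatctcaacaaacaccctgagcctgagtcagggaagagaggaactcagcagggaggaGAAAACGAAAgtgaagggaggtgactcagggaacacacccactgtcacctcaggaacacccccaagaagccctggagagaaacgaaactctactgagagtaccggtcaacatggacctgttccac

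In *Oas1g* a pair of overlapping matches, GAAATGGAAA and GAAACTGAAA, spanned bases -18 to -3 before the start. The same letters stood at bases -20 to -5 in *Oas1a*. *Oas3* had 1 match, GAAAACGAAA, at bases -75 to -66. The promoter of *Oasl2* held no match in this window, and the promoters of *Oas1b* and *Oas2* were not analysed here. Among the Oas genes without array values, the promoter of *Oas1c* held the same letters as *Oas1g* and *Oas1a*, GAAACTGAAA and GAAATGGAAA, on the opposite strand at bases -114 to -99, and those of *Oas1f*, *Oas1h* and *Oasl1* held no match. Among all 32851 promoters of this length 3.44% held the ISRE core, and a match is a description of the letters only. The gamma-activated sequence TTCNNNGAA, a motif of interferon-gamma responses, was found in *Oas1a* alone among the 4, at bases -98 to -90, apart from the ISRE matches, and in 8.3% of all promoters. The promoters of *Oas1g* and *Oas1a* were identical at 261 of 294 aligned bases (88.8%), with a longest identical run of 73 bases, whereas every other pair among the 4 reached between 56% and 61.8%. *Oas1a* and *Oas1g* thus share much of the sequence around their starts. How far the array probes of the Oas1 group share sequence was not analysed here, so the split of signal between single Oas1 genes is uncertain.

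**Figure D1:**
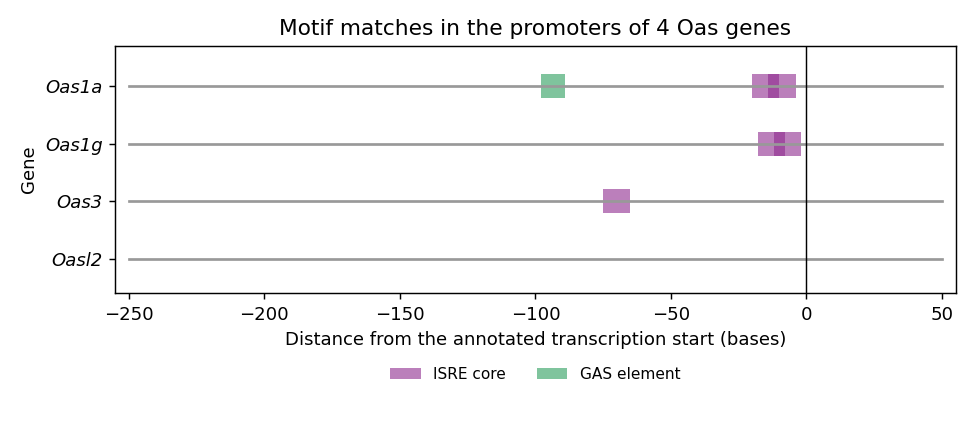
Positions of motif matches in the promoters of *Oas1a*, *Oas1g*, *Oas3* and *Oasl2*, drawn as distance in bases from the annotated start (vertical line), with each grey line covering 250 bases before to 50 bases after it. The overlapping ISRE core matches of *Oas1a* and *Oas1g* sit just before the start, that of *Oas3* lies farther upstream, *Oasl2* has none, and the gamma-activated sequence is drawn in *Oas1a* alone.

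All 6 members were higher in both *Tet1* KD arrays than in the NT array. The log2 fold, the mean of both KD arrays minus NT on the log2 scale, ran from 2.30 in *Oasl2* to 5.25 in *Oas1g*, with a median of 2.91 over the members against -0.12 over all 27311 probe sets tested. The comparison asked which genes differ on day 15 in ATDC5 cells whose *Tet1* was knocked down before differentiation. It was tested with limma across every probe set averaging 100 units or more, the arrays' arbitrary unit of intensity. All 6 members passed the filter and the test (limma adjusted p from 2.75e-06 to 0.00557), where 1.36% of all tested probe sets and 26.8% of the named ones were called higher. Over all tested probe sets 372 were called higher and 106 lower, or 350 and 48 after centring each array on its median. Because the names come from a selection on this contrast, the count of 6 supports nothing by itself. With no filter on low values limma called 0 of the 6 (adjusted p from 0.758 to 0.776, 6 of 6 at an unadjusted p under 0.05) and 0 of all 35512 probe sets. Of all rows selected, 56.4% were higher in KD, and the named and tested ones that were higher had a median log2 fold of 1.20. A fold of at least 2.5 under both hairpins, a description with no test, held for all 6 members, for 1.02% of all probe sets and for 19.4% of the named ones. With 1 NT array, the spread behind the p-values comes from the difference between the hairpins, moderated across probe sets. More cells expressing a gene and more RNA per cell cannot be told apart in such bulk samples.

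**Figure D2:**
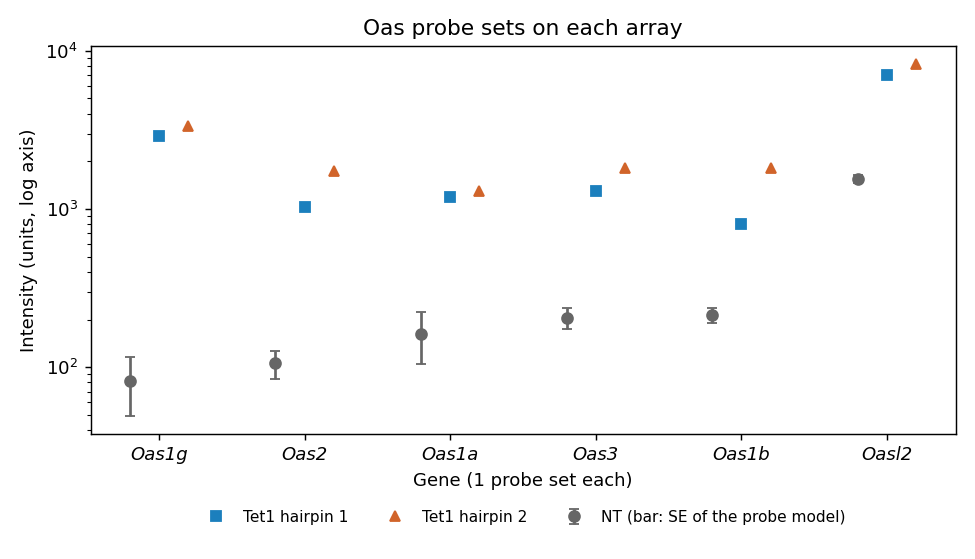
Intensity of each Oas probe set on the NT array, the hairpin 1 array and the hairpin 2 array, on a log axis in the units of the deposited values. Bars on NT are the standard error of the probe model within that 1 array, and each member's KD values lie above NT plus its error.

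The largest change among the members was in the Oas1 group. *Oas1g* (probe set 10533246), an Oas1 enzyme of the mouse, had an intensity of 82.2 units in NT, against 2911 with hairpin 1 and 3366 with hairpin 2. Both KD arrays were high and close to each other, 35.4-fold and 41.0-fold above NT. *Oas1g* rose by a log2 fold of 5.25 ± 0.32 (SE), with an adjusted p of 2.75e-06 from limma. This was the largest log2 fold of the 27311 probe sets tested, but its NT value lay below the filter of 100 units, which *Oas1g* passed through the KD arrays, so it had to differ and its rank is a description only. The authors' probe model gave that value a standard error of 33.2 units, 40.4% of its intensity, where the median over the selected table was 3.01%. With NT taken 1 standard error higher or lower, the fold of the mean KD intensity was 27.2 or 64.1 in place of 38.2, and the log2 fold 4.762 or 5.998.

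*Oas1a* (probe set 10533256), an active synthetase and the neighbour of *Oas1g*, had an intensity of 163 units in NT, against 1184 with hairpin 1 and 1291 with hairpin 2. The KD arrays differed from each other by a ratio of 1.09, the smallest gap among the 6 members, and both were well above NT. *Oas1a* rose by a log2 fold of 2.92 ± 0.34 (SE), with an adjusted p of 0.000209 from limma. Its log2 fold was below that of *Oas1g*, which exceeded it by 2.29 under hairpin 1 and 2.37 under hairpin 2. Its NT standard error was 58.8 units (36%), and the fold of 7.59 became 5.58 or 11.9 with NT 1 standard error higher or lower.

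*Oas1b* (probe set 10525158) is the flavivirus resistance gene of the mouse, cut short in most laboratory strains, and its product does not make oligoadenylates. It had an intensity of 213 units in NT, against 804 with hairpin 1 and 1809 with hairpin 2. Here the KD arrays stood apart, hairpin 2 at 2.25 times hairpin 1, although both were above NT. *Oas1b* rose by a log2 fold of 2.498 ± 0.43 (SE), with an adjusted p of 0.00557 from limma, with the widest error of the members. Quantile normalization ended this call, with an adjusted p of 0.0617, and so did a limma fit without the intensity trend, with 0.151, and over 8 alternatives the adjusted p ranged from 3.88e-09 to 0.776.

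*Oas2* (probe set 10533198) encodes a synthetase built from repeated synthetase domains. It had an intensity of 106 units in NT, against 1033 with hairpin 1 and 1749 with hairpin 2, so both KD arrays were above NT and hairpin 2 gave the higher value. *Oas2* rose by a log2 fold of 3.66 ± 0.38 (SE), with an adjusted p of 8.72e-05 from limma, which was 9.71-fold under hairpin 1 and 16.4-fold under hairpin 2. *Oas3* (probe set 10533213), the longest of the synthetases, had an intensity of 206 units in NT, against 1291 with hairpin 1 and 1807 with hairpin 2. Again neither KD array overlapped NT. *Oas3* rose by a log2 fold of 2.89 ± 0.34 (SE), with an adjusted p of 0.000261 from limma, and its KD arrays differed by a ratio of 1.4, against 1.69 in *Oas2*.

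*Oasl2* (probe set 10524621) encodes an oligoadenylate synthetase-like protein that carries ubiquitin-like domains. It had an intensity of 1554 units in NT, against 7076 with hairpin 1 and 8306 with hairpin 2. It had the smallest mean fold of the 6 members, 4.55-fold and 5.34-fold, although *Oas1b* was lower under hairpin 1 at 3.77-fold. *Oasl2* rose by a log2 fold of 2.30 ± 0.22 (SE), with an adjusted p of 5.85e-05 from limma. Its NT value was also the most precise of the 6, with a standard error of 94.4 units, 6.08% of the intensity. The member with the largest mean fold, *Oas1g*, thus had the widest relative error in NT and the member with the smallest mean fold the narrowest, and the part of this error in the size of the folds was not tested. On the scale of log2(value + 32), which damps low values, the log2 fold of *Oas1g* was 4.79 and that of *Oasl2* 2.28.

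**Figure D3:**
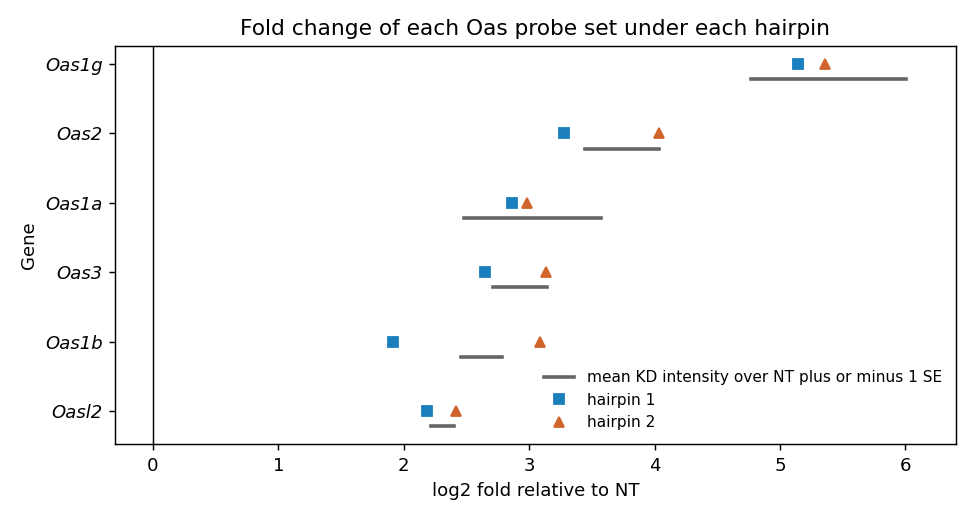
Log2 fold of each Oas probe set over NT under hairpin 1 and under hairpin 2, ordered by the mean. The bar at each member spans the log2 fold of its mean KD intensity with NT raised or lowered by 1 standard error of the probe model. That mean is taken on the intensity scale, and the mean that sets the order on the log2 scale. *Oas1g* stands apart at 5.15 and 5.36, *Oas2* follows at 3.28 and 4.04, and the other 4 members lie between 1.91 and 3.13.

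The order of the log2 folds was *Oas1g*, *Oas2*, *Oas1a*, *Oas3*, *Oas1b* and *Oasl2*. *Oas1g* lay above *Oas2* by 1.87 under hairpin 1 and 1.32 under hairpin 2, and *Oas2* lay above *Oas1a* by 0.42 and 1.05. The neighbours *Oas1a* and *Oas3* were not separated, since the difference was 0.21 under hairpin 1 and -0.15 under hairpin 2. *Oas3* and *Oas1b* differed by 0.74 and 0.05, with overlapping ranges. *Oas1b* and *Oasl2* changed places, at -0.27 under hairpin 1 and 0.67 under hairpin 2. Of the 15 pairs of members, 12 had the same order under both hairpins and 11 had ranges that did not overlap. The ranges hold the spread between the hairpins and leave out the NT error. With NT 1 standard error higher or lower, the log2 fold was 3.394 or 3.982 in *Oas2* and 2.479 or 3.568 in *Oas1a*. With NT raised in every member, 4 of the 6 kept their place in the order, and with NT lowered all 6 did. These orders describe 2 KD arrays against a shared NT array and carry no test.

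Hairpin 2 gave the higher value in all 6 members, while it did so in 45.4% of all tested probe sets and in 68.5% of the 372 called higher. The log2 difference, hairpin 2 minus hairpin 1, was 0.13 in *Oas1a*, 0.21 in *Oas1g* and 0.23 in *Oasl2*. It was 0.49 in *Oas3*, 0.76 in *Oas2* and 1.17 in *Oas1b*. A larger value than that of *Oas1b* was found in 1.97% of all tested probe sets, and one larger than that of *Oas2* in 5.04%. Values larger than those of *Oas1a* and *Oas1g* were common, at 32.8% and 25.6%. With 1 array per hairpin these differences have no replicate, and hairpin and culture cannot be told apart.

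**Figure D4:**
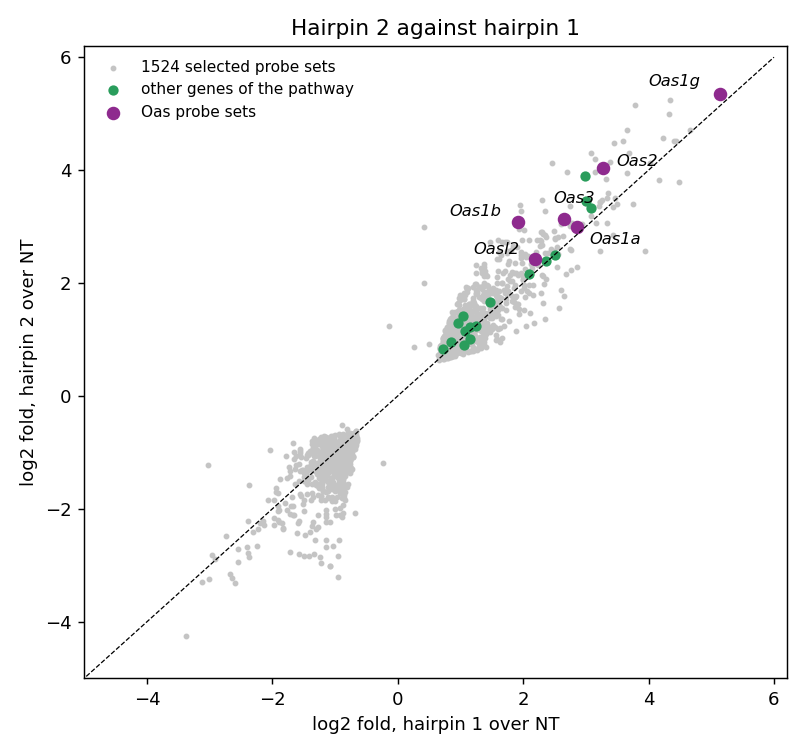
Log2 fold over NT under hairpin 2 (vertical axis) against hairpin 1 (horizontal axis) for the probe sets of the selected table, with the 6 Oas probe sets labelled. The diagonal marks equal folds, and all 6 Oas probe sets lie above it, *Oas1b* farthest at 1.91 and 3.08.

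*Tet1* itself was lower under both hairpins on its 3 probe sets. The probe set with the smallest adjusted p had an intensity of 1626 units in NT, against 843 with hairpin 1 and 726 with hairpin 2, and none of the 3 passed (limma adjusted p from 0.133 to 0.186). Hairpin 2 gave the lower *Tet1* value on 2 of these probe sets and the higher on the third, at 188 units against 146 units under hairpin 1. Of 7 chondrocyte markers, 4 were named (*Acan*, *Col2a1*, *Col11a1* and *Hapln1*), with NT intensities from 1427 to 4914 units, and all 4 were lower in both KD arrays, 3 of them past limma, where 0.388% of all tested probe sets and 7.08% of the named ones were called lower. The other 3 chondrocyte markers were not analysed here. Because the names come from a selection on this contrast, a marker that did not differ could not be among the 4. The 4 therefore do not show that chondrocyte markers fell as a group. Of 9 leukocyte markers, 2 were named, and 7, among them the defining marker *Ptprc*, were not analysed here. The summed intensity of the 2 reached 4912 units in NT, against 3432 with hairpin 1 and 2219.6 with hairpin 2, with *Lyz2* higher in KD (log2 fold 1.77) and *Cd68* lower (log2 fold -2.02). In NT most of the sum was *Cd68*, at 4424 units against 488 units of *Lyz2*. Intensities of different probe sets are not comparable as a level, so the sum does not measure leukocyte content. The part of other cell types in the Oas result was not tested. The paper reports impaired chondrogenesis after *Tet1* KD, while *Sox9* expression was not affected. The part of differentiation state in the Oas result was not tested either.

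Of 10 genes for sensors and handlers of double-stranded RNA, 7 were named and all 7 were higher, 5 of them past limma, where 1.36% of all tested probe sets and 26.8% of the named ones were called higher. Their median log2 fold was 1.25, near the 1.20 of the named probe sets that were higher. *Dhx58*, a regulatory member of the RIG-I family, had an intensity of 321 units in NT, against 2562 with hairpin 1 and 3509 with hairpin 2, and rose by a log2 fold of 3.23 ± 0.31 (SE), with an adjusted p of 5.64e-05 from limma. *Zbp1*, which binds left-handed nucleic acids, rose by 3.20 and *Ifih1*, the long-RNA sensor MDA5, by 2.38. *Ddx58*, the sensor RIG-I, rose by 1.25, from 2791 units in NT to 6646 and 6617 units. *Eif2ak2*, the kinase PKR, rose by 1.23 with a limma adjusted p of 0.0499, at the threshold. *Adar*, an RNA-editing enzyme that limits sensing, and *Tlr3*, an endosomal receptor, stayed short of the threshold, at log2 folds of 1.11 and 0.90 (limma adjusted p = 0.0815 and 0.0772). *Mavs*, *Pnpt1* and *Prkra* were not analysed here.

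Among 13 genes of interferon ligands, receptors and signalling, 8 were named. All 8 lay above NT, 6 of them past limma, against the same shares, with a median log2 fold of 1.38 beside that 1.20. *Stat2* and *Irf9*, which act together in the nuclear response to interferon, rose by 1.57 ± 0.28 and 1.19 ± 0.25 in log2 fold (SE), with adjusted p of 0.008 and 0.0238 from limma. *Irf7*, a factor that amplifies interferon production, had an intensity of 275 units in NT, against 2181 with hairpin 1 and 4104 with hairpin 2, and rose by 3.44. Its hairpin difference of 0.91 lay between those of *Oas2* and *Oas1b*. *Usp18*, which removes ISG15 and dampens the interferon receptor, rose by 2.504, and *Irf1*, an activating interferon regulatory factor, by 0.98. *Socs1*, an inhibitor of the pathway, and *Tyk2*, a receptor-bound kinase, stayed short of the threshold too, at log2 folds of 1.08 and 0.78 (limma adjusted p = 0.128 and 0.352). The ligand *Ifnb1*, the receptor genes *Ifnar1* and *Ifnar2*, *Irf3* and *Jak1* were not analysed here. These named genes come from the same selected table, so their counts carry the same reservation as that of the Oas members.

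The named genes whose pair of log2 folds lay nearest to the median pair of the Oas members (2.75 under hairpin 1 and 3.11 under hairpin 2) were sought among 1190 other named genes, by Euclidean distance over both contrasts, which share the NT array. They were *Csprs* (distance 0.06), *Phf11d* (listed as D14Ertd668e, distance 0.19), *Ifi205* (distance 0.30), *Cmpk2* (distance 0.33) and *Dhrs9* (distance 0.39). *Csprs* had an intensity of 112 units in NT, against 766 with hairpin 1 and 930.1 with hairpin 2. *Cmpk2*, a mitochondrial nucleotide kinase, had an intensity of 179 units in NT, against 1512 with hairpin 1 and 1627 with hairpin 2. A likeness over 3 arrays is a description of their values.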

How the data were processed

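Total RNA was hybridized to Affymetrix Mouse Gene 1.0 ST arrays. Using dChip, the authors brought the arrays to a common scale through an invariant set of probes and deposited a model-based intensity per probe set on a linear scale, with a standard error for the NT array. Build mm9 is given in the submitters' processing notes. Gene names were read from the deposited list of probe sets that the authors had selected, whose comparison columns (mean, fold, its bounds, difference) were not used. Its intensities equalled those of the full table.

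Values were floored at 10 units before log2 transformation. Probe sets averaging 100 units or more (27311) were fitted in limma 3.58.1 (R 4.3.3, lmFit and eBayes with an intensity trend), KD against NT, two-sided, with Benjamini-Hochberg adjustment over all of them and calls at 0.05. There is 1 residual degree of freedom, and the fit takes NT to vary like the KD arrays. As nothing says how the cultures were separated, p-values rest on the spread between the 2 KD arrays, moderated across probe sets. The number of arrays limits the precision. The fit was tested on simulated data in which all 3 arrays varied alike. Such data cannot show how the fit behaves with a less precise NT array. Promoters were aligned globally with Biopython 1.88.

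Values are given for each Oas probe set, *Tet1* and list members past the threshold. For the 5 nearest patterns distances are given, with intensities for *Csprs* and *Cmpk2* only. Some list members are not reported here. List members short of the threshold and both leukocyte markers were added after their values were seen. The members and lists were chosen with earlier results of these data known. Alternatives covered low values, normalization, filters, the trend and leaving out each KD array.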

Additional observations from a re-analysis of the deposited data

How the results depend on the processing

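All 6 members were higher in KD under every setting tried. With no filter on low probe sets, limma called 0 members (6 of 6 at an unadjusted p under 0.05, adjusted p from 0.758 to 0.776) and 0 of 35512 in all (2229 before adjustment). That fit had 2.82 total degrees of freedom, against 14.3 in the main fit, and why these fell was not tested. After quantile normalization and without the intensity trend 5 members were called, with *Oas1b* lost. Over all probe sets these settings called 188 higher and 34 lower, and 87 higher and 21 lower, against 372 and 106. A mean of at least 200 units called 553 higher and 222 lower. The NT values of *Oas1g* (82.2 units), *Oas2* (106 units) and *Oas1a* (163 units) lay below 200 units. These members passed that filter through the KD arrays, so their calls under it support nothing. A fit without the unnamed probe sets numbered below the first named one, chosen after seeing the data, called 785 higher and 477 lower. All 6 members were called in both of these settings, as with log2(value + 32), a floor of 32 units and median centring. With NT raised or lowered by 1 standard error of the probe model, also chosen after seeing the data, the median log2 fold over the members was 2.58 or 3.35. Leaving out hairpin 1 or hairpin 2 left no residual degree of freedom and hence no test, and gave median log2 folds of 3.11 and 2.75, with 3 and 4 of the 6 members at their place in the order. With log2(value + 32), *Oas3* (2.71) and *Oas1a* (2.70) changed places. No paired analysis was possible because NT and KD share fewer than 2 replicate numbers. The NT standard errors were widest in *Oas1g* and *Oas1a*, at 40.4% and 36% of the intensity.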
